A study of Homo sapiens
Mus musculus with 6 samples.

Results

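This account follows 9 genes that mark stomach-type or intestinal identity in gut epithelium, read in the human cancer cells of HT29 xenografts. The genes are CDX1, CDX2, VSIG1, CLDN18, TFF1, TFF2, HNF4A, GATA6 and KLF5. All 9 of 9 were found by symbol among the 63652 genes of the human table, each as a single entry, and all 9 belong to the 25838 genes that the authors tested. They were chosen by the group values of this same comparison, because VSIG1 and CLDN18 were lower and CDX2 was higher, so their own group differences are given as a description and no test is read from them.

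HT29 is an established human colorectal adenocarcinoma line. It was grown for 4 weeks as subcutaneous tumours in nude mice, which lack mature T cells. Of 6 tumours, described as independent, 3 came from control cells and 3 from cells made to overexpress laminin alpha 1 of the mouse, which is part of the laminin trimers found in basement membranes. The sources used here do not say whether the overexpressing cells were 1 clone or a pool, which promoter drives the chain or whether the controls carry an empty vector.

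The epithelium of the stomach and the intestine is set apart early by transcription factors. CDX2 and its relative CDX1 are homeobox factors that switch on and maintain intestinal genes, and loss of CDX2 lets intestinal epithelium take on gastric features. HNF4A, GATA6 and KLF5 are shared by most gut epithelia: HNF4A is a nuclear receptor that drives absorptive and liver-type genes, GATA6 is a zinc finger factor of the endoderm, and KLF5 is a zinc finger factor of dividing crypt cells. VSIG1 is an adhesion protein of the stomach, and CLDN18 is a claudin with a form typical of gastric tight junctions. The values here are per gene and do not separate the forms of CLDN18. TFF1 and TFF2 are trefoil peptides secreted with gastric mucus by surface and gland cells.

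Levels are parts per 1000000 of the summed human signal (ppm). The authors deposited 1 value per group, so no spread between tumours can be set beside a group level. The values scale with reads and not with gene length, so a level is compared between groups for the same gene, and a ratio of 2 genes is given only to show how it differs between the groups. By the steps of the deposited values 1 read was worth 0.0120 to 0.0137 ppm in the group value, depending on the tumour. Intervals below are exact 95% binomial intervals on the reads estimated from these steps. They cover counting error only and leave out the variation between tumours. A gene is said to have passed when the authors' p-value, adjusted by the Benjamini-Hochberg method over all tested genes, was under 0.05. In bulk tumour RNA, fewer cells of a type and less RNA per cell cannot be told apart.

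Epithelial markers of the tumour cells were present. None of the 8 (EPCAM, KRT8, KRT18, KRT19, CDH1, CEACAM5, CDH17 and KRT20) passed, and their summed level was 8325 ppm in the control group and 7662 ppm with laminin. Markers of host stroma read in the human table summed to 21.6 and 45.9 ppm. Of these 10 markers 6 were tested, 1 was higher (COL1A1) and 1 was lower (DES), while 8.08% of all tested human genes passed. The endothelial PECAM1 and the adipocyte ADIPOQ were listed at 0 in both groups and not tested. The PECAM1 entry lay on a patch sequence and not on a chromosome, so its 0 may not reflect the gene. The endothelial CDH5 (0.116 and 0.643 ppm) and the smooth muscle ACTA2 (0.863 and 1.88 ppm) did not pass. Passed or not, 5 of the 6 tested markers had higher levels in laminin tumours and 1 had a lower level. The macrophage marker CD68 (18.9 and 41.4 ppm), which did not pass, made up most of both sums. The part of host reads in the results below was not tested beyond the mouse values given further on.

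CDX2 rose and CDX1 fell. CDX2 stood at 19.6 ppm in the control group and at 67.8 ppm with laminin, 3.47-fold higher. CDX1 stood at 96.4 ppm in the control group and at 53.8 ppm with laminin, 1.79-fold lower. The signal of CDX1 was thus 4.93 times that of CDX2 in control tumours and 0.793 times in laminin tumours, a change in proportion that does not depend on the length of either gene. The third member of the family, CDX4, was listed at 0 in both groups.

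The gastric junction and adhesion genes had the deepest falls of the 9. VSIG1 went from 91.1 ppm in control tumours to 4.05 ppm in laminin tumours, 22.5-fold lower, and only 2 of the 15565 tested genes with a mean level of 1 ppm or more had a lower ratio. CLDN18 went from 2.72 to 0.325 ppm, 8.37-fold lower, with a counting interval of -3.71 to -2.47 around its log2 ratio of -3.07 in the authors' deposited table. These are very different depths: the VSIG1 values rest on an estimated 6986 and 322 reads, the CLDN18 values on 209 and 26. In laminin tumours the 26 CLDN18 reads could be assigned as 4, 11 and 11 reads in the 3 tumours, so its remaining signal was not that of a single tumour. The control value of CLDN18 was too high for such an assignment, and the tumours cannot be matched to their labels. VSIG1 lies on chromosome X (107288200 to 107322414 in the file) and CLDN18 on chromosome 3 (137717577 to 137752494), and no other gene of the file overlaps VSIG1 or lies within 1000 bases of it. RP11-461M2.2, within that distance of CLDN18, was listed at 0 in both groups.

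The gastric trefoil genes did not fall alike. TFF1 went from 10.3 to 4.32 ppm, 2.38-fold lower, with a counting interval of the log2 ratio from -1.44 to -1.07. TFF2 had 3.61 and 3.10 ppm, and its counting interval, -0.48 to 0.03, includes no difference. TFF1 (chromosome 21, 43782391 to 43786703) and TFF2 (43766466 to 43771237) are neighbours, and the signal of TFF1 was 2.86 times that of TFF2 in control tumours and 1.40 times in laminin tumours. TFF3, the intestinal trefoil peptide secreted by goblet cells and the third gene of the same cluster, fell from 140.0 to 86.1 ppm.

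The broad gut factors had smaller differences. HNF4A had 276 and 296 ppm, and GATA6 had 62.6 and 67.8 ppm, and neither passed. KLF5 went from 710.0 to 953 ppm, 1.34-fold higher, and it would not pass at a stricter threshold of 0.01. The counting intervals of these 3 are narrow, for HNF4A a log2 ratio of 0.07 to 0.12 and for GATA6 0.06 to 0.17, so counting error is not what limits them, while the spread between tumours is unknown. Overlapping HNF4A or within 1000 bases of it are, among others, RP5-881L22.5 (12.999 and 12.5 ppm), R3HDML (0.637 and 0.757 ppm) and HNF4A-AS1 (0.208 and 0.190 ppm). As close to GATA6 lie, among others, GATA6-AS1 (11.9 and 14.1 ppm) and RP11-627G18.1 (1.66 and 1.26 ppm). None of these passed, and without strand any shared reads cannot be told apart from those of HNF4A and GATA6.

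**Figure D1:**
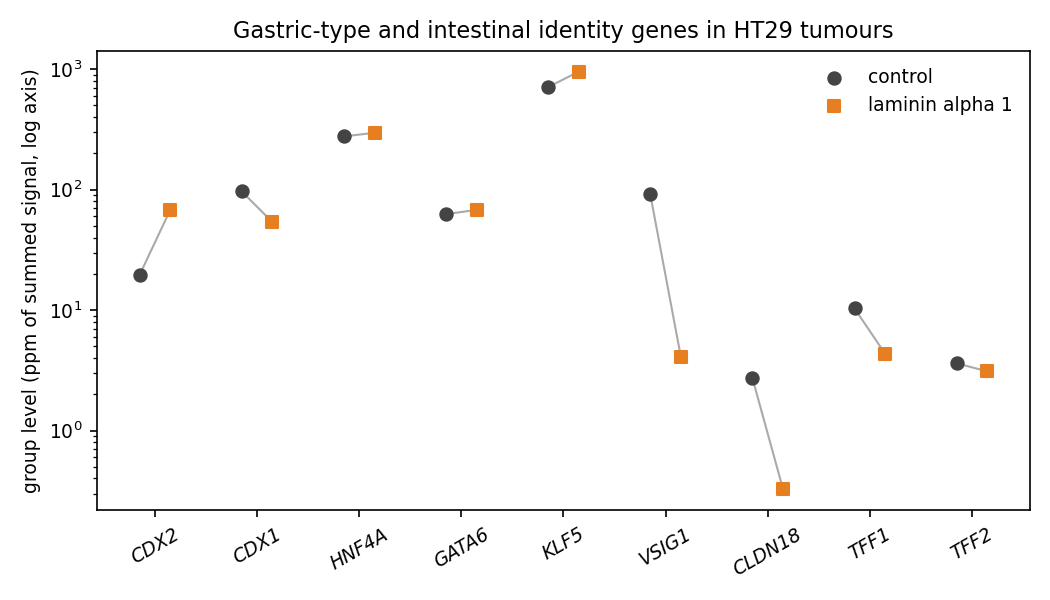
Group level of each of the 9 genes in control (circles) and laminin alpha 1 (squares) tumours, in ppm of the summed human signal on a log axis; each point is 1 deposited group value, with no error bar because the deposited values are per group. CDX2 rises from 19.6 to 67.8 ppm while VSIG1 drops from 91.1 to 4.05 ppm, and HNF4A and GATA6 differ by 1.07-fold and 1.08-fold.

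By the authors' test 6 of the 9 genes passed, CDX2 and KLF5 higher and VSIG1, CLDN18, TFF1 and CDX1 lower. Of all tested human genes 8.08% passed, 5.63% higher and 2.45% lower. Since this comparison chose the genes, nothing is read from that contrast. As a description only, the gastric VSIG1, CLDN18, TFF1 and TFF2 all had lower levels with laminin, though TFF2 (3.61 and 3.10 ppm) did not pass. Of the intestinal CDX genes, CDX2 was higher and CDX1 was lower.

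In the CDX, VSIG and KLF families some tested genes had higher and some lower levels in laminin tumours, while all 4 tested GATA genes and both HNF4 genes had higher levels and all 3 trefoil genes lower ones, passed or not. Of the GATA factors tested, GATA2, a blood and endothelial factor also found in some carcinomas, went from 1.12 to 11.0 ppm, 9.82-fold higher. GATA3, a factor of T cells and of breast and urinary epithelium, rose from 0.428 to 1.92 ppm. The 33 control reads of GATA3 could be assigned as 6, 10 and 17 to the 3 control tumours. GATA1 had 0.0803 and 0.114 ppm and did not pass. GATA4, the partner of GATA6 in gastric epithelium, was listed at 0 in both groups, and GATA5 had 5 reads, all in 1 control tumour, and 1 read in 1 laminin tumour. The signal of GATA6 was 55.8 times that of GATA2 in control tumours and 6.15 times in laminin tumours.

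HNF4G, the intestinal relative of HNF4A, had 149.5 and 174 ppm and did not pass. Among the relatives of VSIG1, VSIG10L rose from 15.1 to 28.7 ppm and GPA33, the intestinal A33 antigen, rose from 43.1 to 63.9 ppm. VSIG2, a stomach-rich relative, had 132 and 152 ppm, VSIG10 62.5 and 61.5 ppm and VSIG8 0.510 and 0.428 ppm, and none of these passed. The 40 control reads of VSIG8 came as 0, 12 and 28, so the control tumours differed widely in this gene. VSIG4, a macrophage gene, was listed at 0. The loss of signal in VSIG1 thus had no counterpart among its measured relatives. Of 14 tested KLF genes 3 were higher (KLF5, KLF6 and KLF15) and 1 was lower (KLF2), with a median log2 ratio of 0.27 beside 0.0039 over all tested genes. The shares over all tested genes were 5.63% higher and 2.45% lower. KLF6, a ubiquitous and injury-induced factor, went from 222 to 293 ppm, KLF15 from 0.650 to 1.40 ppm and KLF2 from 2.35 to 1.35 ppm. KLF4, the factor of differentiated surface and goblet cells, had 54.6 and 46.9 ppm and did not pass.

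**Figure D2:**
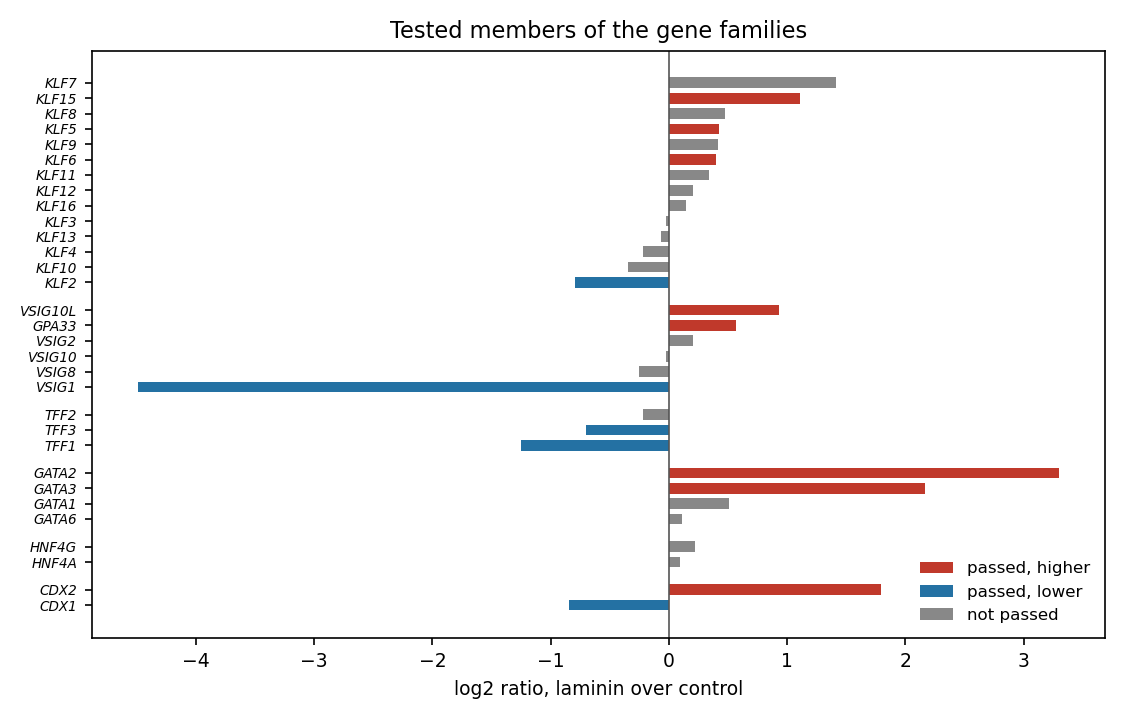
Log2 ratio of laminin over control tumours, from the authors' deposited table, for every tested gene of the CDX, HNF4, GATA, trefoil, VSIG and KLF families; red bars passed and were higher, blue bars passed and were lower, grey bars did not pass. VSIG1 extends to -4.49 and GATA2 to 3.30, on opposite sides, while HNF4A and GATA6 sit near 0.

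CDX2 stood apart from the other 8 genes by the ratios of its neighbours. Position did not enter the choice of genes, but these ratios come from the same comparison in which CDX2 was chosen for being higher. They are therefore given as a description. Each gene was set beside its 10 nearest tested genes with a mean level of 1 ppm or more, 5 on each side by the positions of the file. Of the 10 neighbours of CDX2 8 were higher and 0 were lower, with a median log2 ratio of 0.97. The neighbours of the other 8 genes held between 0 and 2 higher genes each, with medians from -0.25 to 0.15. Among 15314 such neighbourhoods of the human genome 25, 0.163%, held 8 or more higher genes, and all 25 were on chromosome 13. Neighbourhoods move along by 1 gene and share most of their members, so the 25 are not separate regions.

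On the side of CDX2 with lower positions, PDX1, the homeobox factor of pancreas and duodenum, went from 3.08 to 4.92 ppm. The RNA polymerase subunit gene POLR1D went from 172 to 365 ppm and the ubiquitin ligase gene LNX2 from 88.7 to 179 ppm. On the other side the deadenylase gene PAN3 went from 149.7 to 311 ppm, the proteasome assembly gene POMP from 177 to 335 ppm and the transporter gene SLC46A3 from 8.64 to 26.9 ppm. These 6 genes and the noncoding LINC00543 and PAN3-AS1 passed. The other 2 neighbours are processed pseudogenes by their names, ATP5EP2 (93.4 and 82.4 ppm) and EIF4A1P7 (4.77 and 4.33 ppm), and they did not pass. CDX2 had a higher ratio than any of the 10, and its log2 ratio lay 0.83 above their median.

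**Figure D3:**
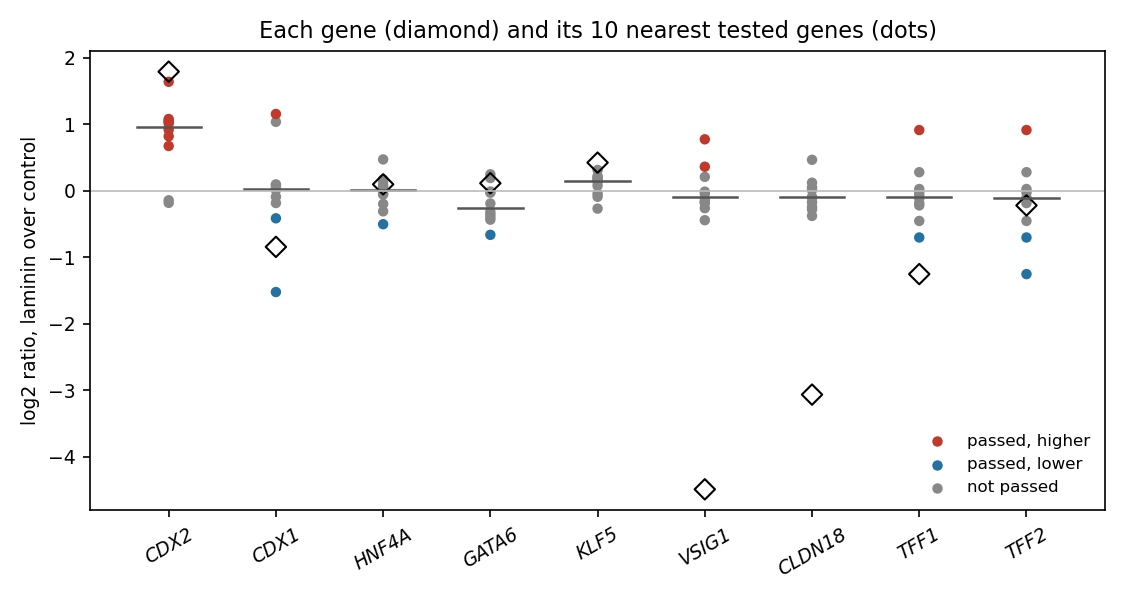
Log2 ratio of laminin over control tumours for each of the 9 genes (open diamonds) and for its 10 nearest tested genes at 1 ppm or more (dots: red passed and higher, blue passed and lower, grey not passed; the line is the median of the 10). The neighbours of CDX2 centre on 0.97, those of VSIG1 and CLDN18 on -0.092 and -0.097, far above the diamonds of these genes.

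The same held well beyond the nearest genes. Of 283 tested chromosome 13 genes at 1 ppm or more 102 were higher and 4 were lower, 36.0% higher, with a median log2 ratio of 0.38. On the 22 other chromosomes, the autosomes and X, the share of higher genes ran from 3.60% to 12.7% and the median from -0.066 to 0.066. The rise was uneven along chromosome 13. Between 20 and 40 Mb, the stretch that holds CDX2, 58 of 84 genes were higher, 2 were lower and the median log2 ratio was 0.72. Between 40 and 60 Mb 20 of 92 were higher, with a median of 0.32, and between 60 and 80 Mb, the stretch that holds KLF5, 6 of 28 were higher, with a median of 0.19. Farther along, 7 of 24 were higher between 80 and 100 Mb, with a median of 0.12, and 11 of 51 between 100 and 120 Mb, with a median of 0.29, so the values did not decline steadily with distance from CDX2. In the stretch with CDX2 5 of the 84 genes, CDX2 included, had a ratio as high as that of CDX2. These stretches were set after the values were seen and carry no test of their own.

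KLF5 lies 45.1 Mb from CDX2 on the same chromosome. None of its 10 neighbours passed. Their median log2 ratio was 0.15 and their highest 0.31, below the 0.42 of KLF5 in the authors' deposited table. VSIG1 and CLDN18 differed most from their surroundings, with log2 ratios that differed from the medians of their neighbours by -4.40 and -2.97. Both genes were chosen for being lower in this comparison, so their differences are a description only. The proteasome gene PSMD10, next to VSIG1, had 56.6 and 51.4 ppm and did not pass. For CDX1 this difference was -0.87 from its neighbours, of which SLC6A7 and TCOF1 were lower and CD74 was higher. For TFF1 the difference was -1.16 and for TFF2 it was -0.11.

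**Figure D4:**
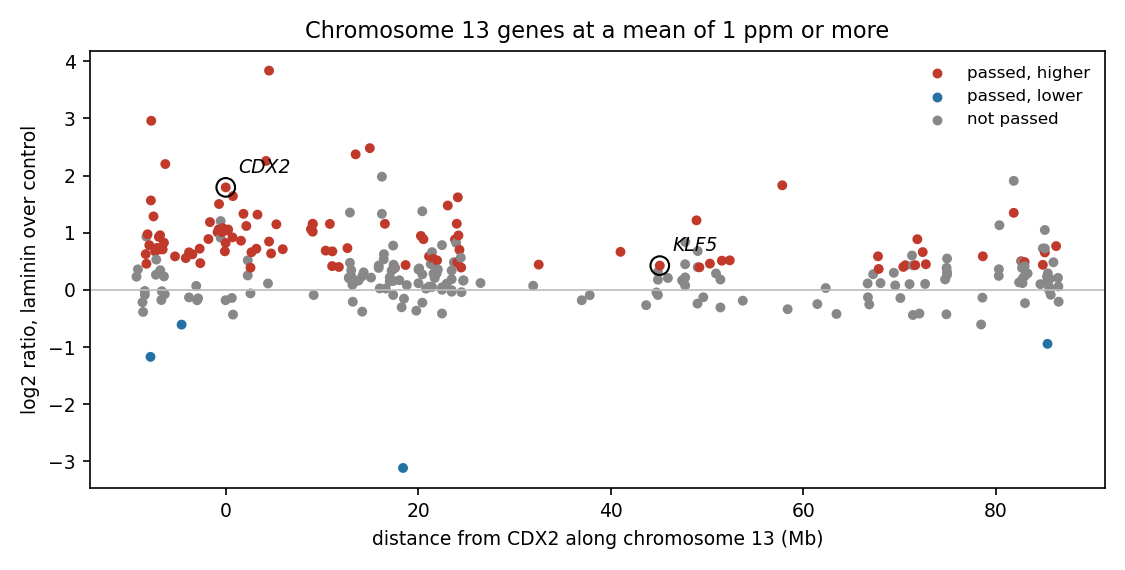
Log2 ratio of laminin over control tumours for the 283 tested chromosome 13 genes at 1 ppm or more, against their distance from CDX2 in Mb; red passed and higher, blue passed and lower, grey not passed, with CDX2 and KLF5 circled. The red points are densest around CDX2, out to FOXO1 at 12.6 Mb, and sparser from MRPS31 at 12.8 Mb onward, far short of KLF5, 45.1 Mb away.

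Other genes of gastric and intestinal epithelium came from lists chosen with earlier results of these data known, so their counts are a description. On the gastric surface list, 15 genes other than the 9, 12 were tested, 0 were higher, 6 were lower and 6 did not pass. Over all tested genes 5.63% were higher and 2.45% lower, and of those at 1 ppm or more 11.6% passed in either direction. The median log2 ratio was -0.74 beside 0.0039 over all tested genes. The secreted gastric mucin MUC5AC fell from 18.9 to 1.71 ppm, the stomach calpains CAPN9 from 21.7 to 4.66 ppm and CAPN8 from 261 to 184 ppm, the annexin ANXA10 from 141 to 71.4 ppm, the gastric protease cathepsin E (CTSE) from 291 to 154 ppm and the sulfotransferase SULT1C2 from 12.3 to 6.60 ppm. Against these, the water channel AQP5 (7.30 and 9.75 ppm), PSCA (1.30 and 2.24 ppm) and VSIG2 had higher levels in laminin tumours and did not pass. GKN1, GKN2 and NKX6-3, which mark gastric surface cells and antrum, were listed at 0 in both groups, and SOX2, the foregut factor, had 0.129 and 0.111 ppm.

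Gastric gland genes were nearly absent. Of 15 genes 5 were listed at 0 in both groups and 6 were tested. SST, the hormone of somatostatin cells in both stomach and intestine, rose from 3.33 to 13.1 ppm and was the only one to pass. Of all tested human genes 8.08% passed. The gland mucin MUC6 had 0.817 and 0.440 ppm and did not pass. The 35 MUC6 reads of laminin tumours could be assigned as 10, 12 and 13. KCNE2, a parietal cell channel subunit, had 1, 2 and 5 reads in control tumours and 0, 1 and 1 in laminin tumours. The groups of KCNE2 do not overlap in depth-scaled level, as for 4.06% of all low genes that could be assigned in both groups in that direction, and KCNE2 did not pass.

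Intestinal genes moved both ways. Of 37 genes, all tested, 14 were higher, 6 were lower and 17 did not pass. Over all tested genes 5.63% were higher and 2.45% lower. The median log2 ratio was 0.46 over all 37, beside 0.0039 over all tested genes. LCT, at 0 in control tumours, enters the median of the 37 as an infinite ratio. Over the 32 with a mean level of 1 ppm or more the median was 0.19, beside -0.021 over all such genes. Among the higher ones were the adhesion molecule CEACAM7 (16.6 to 183 ppm), the peptidases ANPEP (80.6 to 536 ppm), MEP1A (14.1 to 43.4 ppm) and DPP4 (227 to 365 ppm), the fatty acid carrier FABP1 (41.8 to 144 ppm), and the brush border protocadherins CDHR2 (6.77 to 21.2 ppm) and CDHR5 (59.2 to 136 ppm). Other brush border and absorptive genes did not pass, among them villin (VIL1, 256 and 236 ppm), the myosin MYO1A (35.1 and 34.6 ppm), USH1C (155 and 189 ppm) and the fatty acid carrier FABP2 (22.7 and 25.5 ppm). The 6 lower ones were the goblet cell products MUC2 (648 to 365 ppm), TFF3, REG4 (2371 to 378 ppm) and FCGBP (355 to 123 ppm), the membrane mucin MUC17 (634 to 369.6 ppm) and the carbonic anhydrase CA2 (8.21 to 3.15 ppm). REG4 is also made in the stomach.

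Low intestinal genes allow a look at single tumours. Lactase (LCT) was listed at 0 in control tumours and had 4, 5 and 9 reads in the 3 laminin tumours, so every laminin tumour lay above every control tumour. Of low human genes that could be assigned in both groups 10.8% had that arrangement. The intestinal homeobox gene ISX rose from 0.129 to 0.857 ppm, and its 10 control reads split as 1, 2 and 7. The chloride exchanger SLC26A3 rose from 0.221 to 0.967 ppm, with 5, 6 and 6 reads in control tumours.

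**Figure D5:**
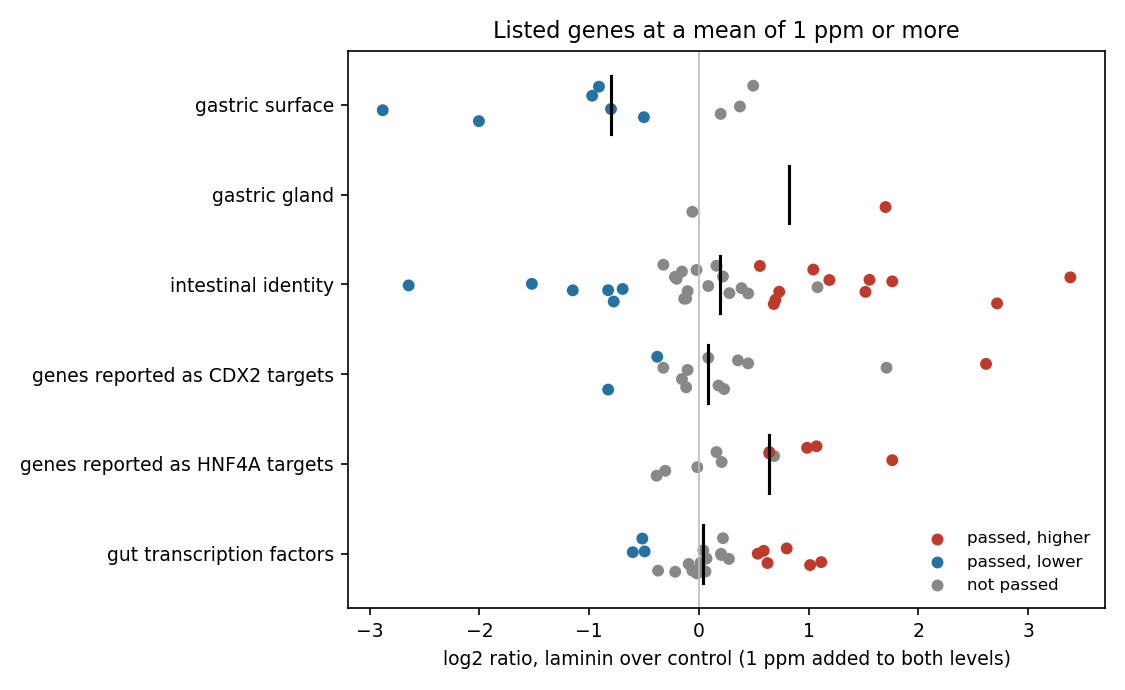
Log2 ratio of laminin over control tumours, with 1 ppm added to both levels, for listed genes with a mean level of 1 ppm or more, 1 dot per gene and 1 row per list; red passed and higher, blue passed and lower, grey not passed, black bars are medians. The passed genes of the gastric surface list are all on the left, and those of the intestinal list lie on both sides.

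Of 16 tested genes reported elsewhere as CDX2 targets 3 were higher, 2 were lower and 11 did not pass, beside 5.63% higher and 2.45% lower over all tested genes. Their median log2 ratio was 0.21 over all 16, where LCT enters as an infinite ratio, beside 0.0039 over all tested genes. Over the 11 at 5 ppm or more it was -0.10, beside -0.031 over all tested genes at that level. The higher ones were the drug efflux pump ABCB1 (1.47 to 14.1 ppm), LCT and ISX, the last 2 under 1 ppm. The lower ones were MUC2 and the claudin CLDN1 (115 to 88.3 ppm). Among the rest, the cadherin CDH17 (351 and 280 ppm), sucrase-isomaltase SI (174.5 and 162 ppm) and LGALS4 (1777 and 1597 ppm) had lower levels in laminin tumours. KRT20 (801 and 850 ppm), GUCY2C (29.7 and 40.9 ppm) and CLDN2 (1.62 and 7.58 ppm) had higher levels, and none of these 6 passed. Passed or not, 10 of the 16 had higher levels and 6 lower ones, beside 13023 and 12815 of all tested genes. Of these 16 genes 10 also stand in the intestinal list.

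Of 16 tested genes reported as HNF4A targets 8 were higher and 0 were lower, with a median log2 ratio of 1.11. Over all tested genes 5.63% were higher and 2.45% lower, with a median of 0.0039. The protease inhibitor SERPINA1 went from 418 to 880 ppm, the carrier TTR from 1.87 to 3.47 ppm and the xenobiotic receptor NR1I2 from 9.77 to 15.8 ppm, and FABP1 is counted here as well. The lipid transfer protein MTTP and the apolipoprotein APOA2 were listed at 0 in control tumours and had 0.513 and 0.0771 ppm in laminin tumours. Both passed and enter the median as infinite ratios. The APOA2 reads of the laminin tumours were 0, 1 and 5, so 1 of these tumours did not differ from the controls. The 25 control reads of TM6SF2, which rose from 0.320 to 0.914 ppm, came as 3, 4 and 18. Most of the list is at low level: over the 7 genes at 5 ppm or more the median was 0.21, beside -0.031 over all tested genes at that level.

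Among 30 tested gut transcription factors 8 were higher, 3 were lower and 19 did not pass, with a median log2 ratio of 0.051. Beside these stand 5.63% higher and 2.45% lower over all tested genes, with a median of 0.0039. Of all tested genes at 1 ppm or more 11.6% passed in either direction. The higher ones included NR5A2 (7.66 to 16.5 ppm), PROX1 (15.1 to 33.8 ppm), ELF3 (394 to 594 ppm), the stem cell factor ASCL2 (0.722 to 1.66 ppm), PRDM1 (0.325 to 1.16 ppm), ISX and PDX1. The lower ones were SPDEF (31.98 to 20.7 ppm), GFI1 (5.35 to 3.45 ppm) and FOXA3 (38.0 to 26.7 ppm), a forkhead factor. SPDEF and GFI1 act in secretory cells, as do ATOH1 (6.77 and 6.67 ppm) and NEUROG3 (14.6 and 13.6 ppm), which did not pass. SOX9, a factor of crypt cells, had 154 and 177 ppm and did not pass. Squamous genes of the upper gut were low. Of 5 tested, KRT13 (2.09 to 4.35 ppm) and IVL (0 to 0.211 ppm) were higher and DSG3 (4.35 to 2.30 ppm) was lower. These 5 genes stand beside the same shares over all tested genes, 5.63% higher and 2.45% lower.

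By levels in both groups, the genes most like VSIG1 among 10583 tested genes at 10 ppm or more were NEBL, AUTS2 and FER1L6, at distances of 1.38, 1.45 and 1.57 on the log2 scale. Those most like CDX2 were PRLR, CFB and OAS2, at distances of 0.082, 0.12 and 0.17. These distances rest on the same group values that chose VSIG1 and CDX2 and are not corrected for gene length, so they only describe similar levels.

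The mouse table offers a comparison that did not enter the choice of genes. Of the 9 mouse counterparts 5 (Cdx2, Vsig1, Cldn18, Tff1 and Tff2) were listed at 0 in both groups. Cdx1 had 2 reads in 1 laminin tumour, and Hnf4a had 8 reads, all in 1 control tumour, and neither was tested. Gata6 (mm10 chromosome 18, 11052510 to 11085635) had 19.9 and 17.2 ppm of the mouse signal and q = 0.994 in the authors' deposited table. Klf5 (chromosome 14, 99298691 to 99313409) had 8.48 and 3.37 ppm, 2.51-fold lower in laminin tumours, and q = 0.579 in the authors' deposited table. In the authors' deposited table none, 0 of the 2 tested counterparts, passed at q under 0.05, and 0 had an unadjusted p under 0.05, beside 3.54% of all tested mouse genes that passed. The 18 Klf5 reads of laminin tumours came as 4, 7 and 7. By the steps of the mouse values 1 read was worth 0.152 to 0.155 ppm in control tumours. In the 3 laminin tumours it was worth 0.103, 0.169 and 0.254 ppm, so mouse read counts do not compare directly between tumours.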

How the data were processed

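RNA was sequenced from 3 control and 3 laminin tumours, after TRI Reagent extraction and oligo-dT selection per the labels' protocols. Per the submitters' processing notes TopHat2 and Cufflinks were used with hg38 and mm10; the sources used here give neither their roles and versions nor how species were separated. No strand-keeping step is described.

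The authors deposited, per the file headers, 1 signal value per group and gene, a log2 ratio and a p-value before adjustment. The mouse table adds, as deposited, a q-value and a test statistic, a score not used here. Human positions in the file differ from RefSeq GRCh38.p14 by 281239 bases or more at the start of each of the 9 genes, on the same chromosomes, so they are printed only as the file's own, with no build. Mouse copies with the same values were used once.

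From these, levels in ppm (1 factor per table), folds, Benjamini-Hochberg adjusted p-values and neighbourhoods were computed (Python 3.11.15, pandas 2.3.3, SciPy 1.17.1). Only the Benjamini-Hochberg adjustment and the read split described next were tested on simulated data. Low values were split into whole reads of the 3 tumours where a single solution of at most 40 reads existed. That held for 61.9% of 800 control and 59.8% of 800 laminin values, against 0.875% and 1.88% of values moved off the steps. No test across tumours was run on these split reads.

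The 9 genes and all lists were chosen with earlier results of these data known. Named genes are the 9, their tested relatives in the CDX, HNF4, GATA, trefoil and VSIG families, up to 6 passed genes per list and direction at 1 ppm or more by size of change, passed transcription factors and mouse counterparts. Other genes named, such as those that did not pass, those under 1 ppm and the neighbours, were chosen after their values were seen. Some genes counted in the lists are not reported here by name.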

Additional observations from a re-analysis of the deposited data

How the results depend on the processing

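Of 79 alternative values 61 stayed within the limits set for them and 18 moved. No passed gene was reversed, but other thresholds, 1 ppm added to both levels and small scaling shifts could hardly have done so. Genes passed numbered 2087, and 4179 at an unadjusted p under 0.05. With 1 ppm added to both levels the log2 ratio became -4.19 for VSIG1 and -1.49 for CLDN18, and relative to the median ratio that of KLF5 was 0.45. At 1 and 5 ppm or more the list medians were -0.89 and -0.90 (gastric surface), 0.94 and 1.97 (gastric gland, 2 genes and 1 gene), 0.19 and 0.17 (intestinal), 0.086 and -0.10 (CDX2 targets) and 0.69 and 0.21 (HNF4A targets). The CDX2 target median thus turned sign at 5 ppm, where the median over all tested genes was -0.031. Adjusted over genes at 1 ppm or more, the higher genes numbered 1 (CDX2 targets) and 5 (HNF4A targets), since genes under 1 ppm then drop out. At an adjusted p under 0.01, 5 of the 9 genes passed, KLF5 no longer, 1 CDX2 target was lower and 5 gut transcription factors were higher. Leaving out single tumours was not run: the deposited values and p-values are per group. No paired analysis was possible because the values are per group. Depth limits CLDN18, with 26 estimated reads in laminin tumours, more than the other 8 genes.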
